A study of Canis lupus familiaris with 28 samples.

Results

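Hemophagocytic histiocytic sarcoma (HHS) is a form of canine histiocytic sarcoma (HS) whose tumor cells engulf red blood cells and other blood cells. RNA-seq of 3 tumors labelled HHS was compared with 5 unaffected tissue samples, so that 8 of the 28 samples of the series enter the comparison. The tumors were chosen by their disease label alone and all came from Bernese Mountain Dogs (BMDs), a breed prone to the disease. HHS tumor 41 was taken from a lymph node, HHS tumor 46 from liver and HHS tumor 53 from lung. The controls were blood of 3 unaffected BMDs and the spleen and lung of German Shepherd Dogs (GSDs), with 1 sample of each organ. A GSD liver was left out of the main comparison. Another 15 BMD tumors labelled HS, without the hemophagocytic label, were used where the HHS tumors were tested against other tumors. The labels give no age and no treatment for these dogs.

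In the dog, HHS is known as a tumor of macrophages of the splenic red pulp and bone marrow, while other HS usually has features of dendritic cells. Macrophages take up old red blood cells, break them down in lysosomes, which are acidic compartments rich in hydrolases, and return the iron of heme to the blood. Hemophagocytosis also occurs when macrophages are driven by interferon gamma in hemophagocytic lymphohistiocytosis (HLH). The groups of genes described here follow this biology: lysosome, erythrophagocytosis and iron, macrophage and dendritic cell identity, antigen processing, interferon, phagocyte oxidase, and the cell cycle.

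Reads counted on genes ranged from 134634569 to 171712524 per HHS tumor and from 133524755 to 171816341 per control. The 3 HHS libraries correlated at 0.939 to 0.967 on the log2 scale, and the 3 blood libraries at 0.974 to 0.978. The names of the deposited libraries begin with a code read here as the flow cell, which the labels do not state. Spleen and lung shared this code with the tumors, and blood had a different one. Among the controls, blood as a tissue therefore cannot be told apart from this presumed flow cell or from breed. Values against blood and against spleen and lung are given beside many of the results. Bulk RNA cannot separate fewer cells of a type from less RNA per cell. Levels are log2 CPM (counts scaled to library size) on 1 scale for all libraries, and 3 values for blood or for HHS are given in the order of blood controls 1, 2 and 3 or of HHS tumors 41, 46 and 53.

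Against the 5 controls, 25 of 18643 tested genes passed edgeR's quasi-likelihood test at an adjusted p under 0.05 and an absolute log2FC above 1.5, which is 0.134% of the genes tested. Of these, 23 (0.123%) were higher and 2 (0.0107%) lower in HHS. None of the 25 identifiers has a gene name in the tables used here, so their functions are not described. ENSCAFG00000004389, the gene with the smallest p, was at 7.07, 7.07 and 6.77 in HHS, 3.74, 4.03 and 4.19 in blood, 4.19 in spleen and 4.20 in lung. Every tumor was above every control and the 5 controls differed little among themselves, with a log2FC of 2.87 (SE 0.24, adjusted p = 0.0194). ENSCAFG00000004251 stood at 4.15, 3.99 and 3.41 in HHS, at -1.59, -1.86 and -1.92 in blood, at -1.19 in spleen and at -0.85 in lung. It was thus low in each control and rose by a log2FC of 5.33 (SE 0.48, adjusted p = 0.0194). The 2 genes that fell were ENSCAFG00000010885, with a log2FC of -5.60 (SE 0.66, adjusted p = 0.0349), and ENSCAFG00000018994, with a log2FC of -4.22 (SE 0.56, adjusted p = 0.0422). Levels of the former were -0.72, -0.39 and -0.48 in HHS, 5.44, 4.66 and 4.73 in blood, 3.50 in spleen and 5.83 in lung. The tumors were low together and the groups did not overlap.

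The same libraries enter each set of controls, so the values against blood alone and against spleen and lung describe the called genes and are no separate test of them. All 23 genes that rose were also called against blood alone, where 20.8% of genes were called and 12.6% were called higher. All 23 lay above both spleen and lung in each HHS tumor, as 17.7% of all genes did, and had an unadjusted p under 0.05 against these organs, where 6.34% of genes were higher at that level, with log2FC between 2.0 and 11.05 and a median of 4.02. The 2 genes that fell lay below both organs, as 20.4% of all genes did. The gap between the lowest HHS tumor and the highest control ran from 1.39 to 9.22 on the log2 scale among the 23. For 23 of the 25 genes the 3 HHS tumors lay inside the range of the 15 HS tumors, and the HS median was above the highest control for all 23 genes that rose and below the lowest control for both that fell. Directly against HS tumors, the log2FC of the 25 genes ran from -2.85 to 0.86, with a smallest adjusted p of 0.943, in a comparison that called 0% of its genes and gave 4.01% an unadjusted p under 0.05. The count of 25 itself moved strongly with the libraries used: it was 0 when any blood control, the spleen or HHS tumor 41 was left out, 6 without HHS tumor 46, 8 without HHS tumor 53 and 104 without the lung control. On the same 8 libraries DESeq2 called 2159 genes, 784 higher and 1375 lower, and these included all 25.

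**Figure D1:**
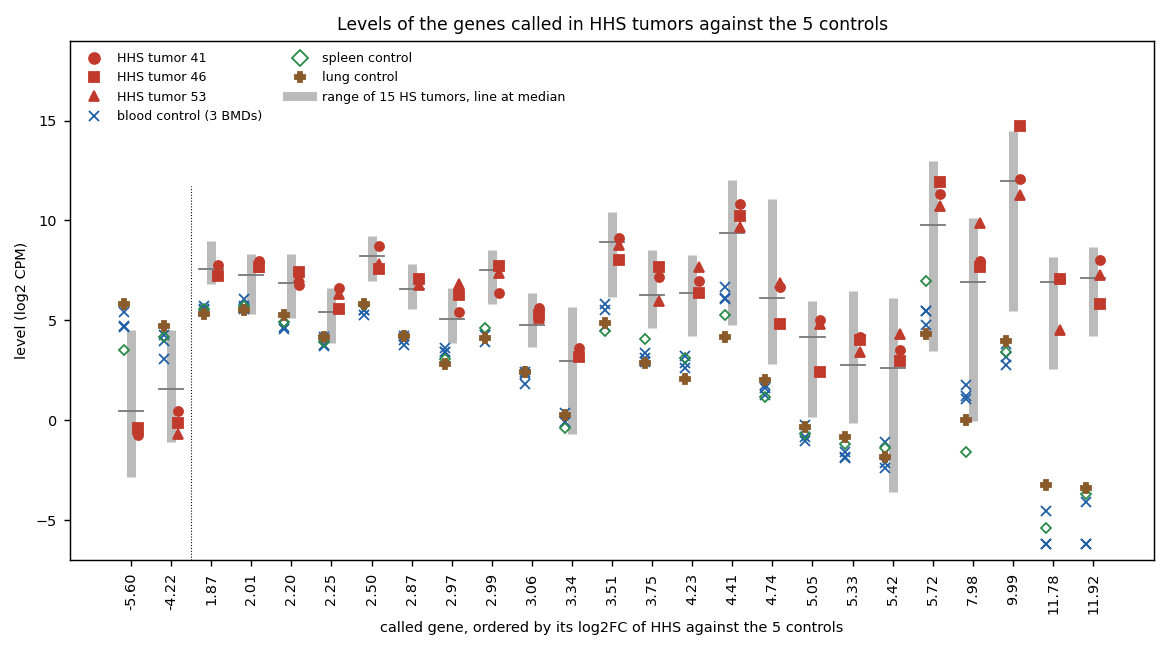
Level in log2 CPM of each of the 25 called genes in the 3 HHS tumors (red), the 3 blood controls, the spleen control and the lung control, ordered by log2FC from -5.60 to 11.92, with grey bars for the range of the 15 HS tumors and a line at their median. In the 23 genes right of the dotted line every HHS tumor sits above every control, and in the 2 genes left of it every HHS tumor sits below.

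Several lysosomal genes were higher in each HHS tumor than in each control, as 8.51% of all genes tested were. Of 44 genes listed, 13 have an identifier here and 12 were tested. Against the 5 controls edgeR called 0 of the 12. DESeq2 called 4 higher, beside 784 of the 18643 genes tested. In edgeR 6 had an unadjusted p under 0.05 and were higher in HHS, beside 9.76% of all genes tested. The median log2FC of the 12 was 0.79, beside -0.17 over all genes tested. Leaving out the lung control gave 1.54 and leaving out HHS tumor 53 gave 0.42. Summed CPM of the 13 genes was 1920, 5930 and 3050 in HHS, 976 to 1240 in blood, 840 in spleen and 944 in lung, so that each tumor exceeded each control. *SMPDL3A* contributed most of the sum in HHS tumor 46. In the 15 HS tumors the sum ranged from 1320 to 7760, which covers all 3 HHS tumors. Directly against HS tumors the median log2FC of the 12 was 0.06, beside -0.11 over all genes tested, and edgeR called 0.

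*SMPDL3A*, a phosphodiesterase related to acid sphingomyelinase that can hydrolyze cyclic dinucleotides, had the smallest p of all 990 named genes tested. Its level was 9.05, 12.05 and 8.63 in HHS, 3.79, 4.45 and 4.45 in blood, 4.69 in spleen and 5.03 in lung. Each tumor was above each control, with HHS tumor 46 highest. The log2FC was 6.22 (SE 0.88), and the adjusted p of 0.0525 in edgeR's quasi-likelihood test missed the threshold. Against blood alone *SMPDL3A* rose by a log2FC of 6.53 (adjusted p = 0.00848), and against spleen and lung the log2FC was 5.91 (unadjusted p = 0.00736). The HS tumors ranged from 6.76 to 12.47 with a median of 9.84, and HHS minus HS was 0.20 (SE 0.87).

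*FUCA2*, an alpha-L-fucosidase, stood at 6.18, 6.60 and 6.29 in HHS, at 3.32, 3.64 and 4.23 in blood, at 4.43 in spleen and at 4.46 in lung. The tumors were close together and above all controls, with a log2FC of 2.26 (SE 0.33, adjusted p = 0.0577). *CD63*, a tetraspanin of late endosomes and lysosomes, was at 9.31, 9.23 and 9.65 in HHS, 7.27, 7.62 and 7.25 in blood, 7.71 in spleen and 8.07 in lung. Its log2FC was 1.76 (SE 0.32, adjusted p = 0.0784), again without overlap. *ATP6V1C1*, a subunit of the proton pump that acidifies lysosomes, was at 7.37, 7.55 and 8.22 in HHS, 5.80, 6.17 and 5.85 in blood, 6.49 in spleen and 5.76 in lung, with a log2FC of 1.69 (SE 0.31, adjusted p = 0.0784). All 3 genes passed the test against blood alone, with adjusted p of 0.00449, 0.00902 and 0.012, and had log2FC of 1.92, 1.5 and 1.58 against spleen and lung. With blood, lung and spleen fitted as separate tissues of equal weight, the median log2FC of the 12 lysosomal genes was 1.35. Spleen and lung had 1 library each in that fit, so its spread came from HHS and blood only.

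Other lysosomal genes had log2FC of either sign. *SQSTM1*, the autophagy receptor p62, was 8.48 in HHS tumor 53 but 5.70 in HHS tumor 41, level with the controls at 5.71 to 6.40. *NEU1*, a sialidase, and *ARSA*, arylsulfatase A, had log2FC of 0.02 (SE 0.28) and 0.06 (SE 0.42). *LAPTM4B*, a membrane protein of lysosomes, had 0 counts in each blood library and was called higher than blood, at least 23.8-fold at the floor of 3 counts per library, yet it was lower in the tumors (0.08, -1.46 and -2.97) than in lung (4.21).

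**Figure D2:**
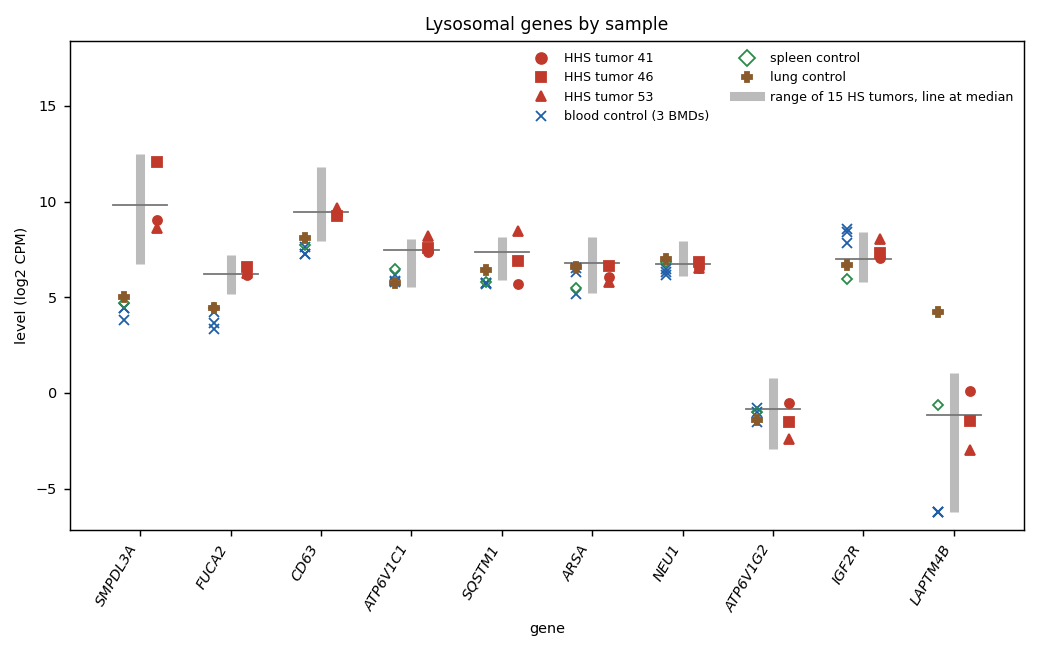
Level in log2 CPM of 10 of the 12 tested lysosomal genes in each HHS tumor (red) and each control, ordered by log2FC against the 5 controls, with grey bars for the range of the 15 HS tumors and a line at their median. *SMPDL3A*, *FUCA2*, *CD63* and *ATP6V1C1* at the left separate the 3 tumors from all 5 controls, and *IGF2R* and *LAPTM4B* at the right do not.

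Genes of erythrophagocytosis and iron handling were sparsely covered. The hallmark genes *CD163*, *HMOX1* and *SLC40A1* have no identifier with a name here and were not analysed here, and 4 of the 35 listed genes were tested, with a median log2FC of 1.16. Against the 5 controls edgeR called 0 of the 4. DESeq2 called 1 higher and 1 lower, beside 784 and 1375 of the 18643 genes tested. At an unadjusted p under 0.05 in edgeR 1 was higher and 1 lower, beside 9.76% and 10.5% of all genes. *LRP1*, the scavenger receptor that takes up heme bound to hemopexin, was at 8.21, 9.56 and 10.69 in HHS, 8.79, 7.15 and 7.34 in blood, 8.34 in spleen and 7.25 in lung. HHS tumor 41 lay within the controls and the others above, with a log2FC of 1.85 (SE 0.63, unadjusted p = 0.0176). *TSPO*, a porphyrin-binding protein of the outer mitochondrial membrane, was at 2.14, 2.23 and 0.70 in HHS against 2.24 to 5.66 in the controls, with a log2FC of -2.84 (SE 0.89, unadjusted p = 0.0117). It fell against blood alone (log2FC -2.62, adjusted p = 0.0483), and had a log2FC of -3.03 against spleen and lung. *HEBP2*, a heme-binding protein, rose against blood (log2FC 5.30, adjusted p = 0.0103), but the tumors at 3.84, 2.61 and 1.95 overlapped lung at 3.21.

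The red blood cell markers that were tested against blood, and the platelet marker, were lower in the tumors than in blood. The 3 tested erythroid markers, of 20 listed, all had negative log2FC against the 5 controls, with a median of -2.95 that was -7.82 without HHS tumor 46. Both medians are the value of *TSPO2*, which was near the floor, with an unadjusted p of 0.221 in edgeR. Its counts were 24, 0 and 60 in blood, 65 in spleen, 0 in lung and 0, 11 and 0 in HHS. The groups overlapped for *TSPO2*, and it was not tested against blood. Without the spleen, blood control 1 or blood control 3 only 2 markers were tested, with medians of -5.27, -4.64 and -4.81. Of the 3 markers edgeR called 0 and DESeq2 called 2 lower, beside 1375 of the 18643 genes tested that DESeq2 called lower. In edgeR 2 had an unadjusted p under 0.05, beside 10.5% of all genes. *FECH*, the enzyme that inserts iron into heme, was at 2.77, 4.48 and 4.39 in HHS, 7.94, 5.62 and 7.57 in blood, 6.43 in spleen and 4.44 in lung. It fell against blood (log2FC -3.27, adjusted p = 0.0174) and overlapped lung. *TRIM58*, which acts in late red cell maturation, was at -6.22, -2.47 and -4.28 in HHS, 4.81, 1.79 and 4.62 in blood, 2.07 in spleen and -3.14 in lung. It also fell against blood (log2FC -8.04, adjusted p = 0.0119), while lung lay among the tumors. Blood control 2 was lower than the other blood controls for both genes. The only platelet marker with an identifier, *MPIG6B*, was at -0.05, -1.71 and -0.38 in HHS, 6.45, 5.82 and 4.12 in blood, 0.92 in spleen and 1.19 in lung. All tumors were below all controls, and *MPIG6B* fell against blood (log2FC -6.31, adjusted p = 0.00398).

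Identity genes of macrophages and dendritic cells could be read for only 4 genes, so the label was not checked against defining markers such as *CD163* and *ITGAD*. *LYZ*, the lysozyme of phagocytes, was at 9.38, 10.91 and 12.09 in HHS, 12.94, 13.58 and 12.87 in blood, 9.82 in spleen and 8.31 in lung. The tumors lay below blood and, except HHS tumor 41, above spleen, so that the log2FC was -1.98 (SE 0.74) against blood and 1.91 (SE 0.99) against spleen and lung. *STAT6*, the transcription factor of interleukin-4 signaling, had a log2FC of -0.50 (SE 0.47) against the 5 controls, -0.82 against blood and 0.35 against spleen and lung. *DCSTAMP*, a fusion protein of dendritic cells and osteoclasts, was at 1.18, 2.26 and 5.35 in HHS, 3.18, 3.52 and 3.14 in blood, -1.54 in spleen and -2.33 in lung. Its log2FC was 5.91 (SE 1.64, unadjusted p = 0.011) against spleen and lung and 0.69 (SE 0.94) against blood. *NFATC1*, a calcium-regulated transcription factor of the osteoclast and dendritic cell programs, was at 4.12, 4.81 and 3.54 in HHS and 5.43 to 6.24 in blood, and fell against blood (log2FC -1.72, adjusted p = 0.0277). Spleen at 4.46 and lung at 4.76 lay among the tumors.

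Mitosis genes were higher in HHS in part. Of 60 genes listed, 13 were tested, and against the 5 controls edgeR called 0. DESeq2 called 4 higher and 1 lower, beside 784 and 1375 of the 18643 genes tested. Of the 13, 5 were higher and 1 was lower with an unadjusted p under 0.05 in edgeR, beside 9.76% and 10.5% of all genes tested. The median log2FC was 0.39, and 0.25 without blood control 1. *GTSE1*, which stabilizes microtubules and restrains p53 after DNA damage, was at 5.52, 2.91 and 4.73 in HHS, 0.42, 1.41 and 2.09 in blood, 2.42 in spleen and 1.91 in lung. The tumors were above all controls, HHS tumor 46 by the least, with a log2FC of 2.90 (SE 0.63, adjusted p = 0.0984). *KIFC1*, a kinesin that clusters extra centrosomes, was at 6.18, 4.28 and 5.71 in HHS against 2.63 to 4.05 in the controls, with a log2FC of 2.07 (SE 0.50). *KIF20A*, a kinesin of cytokinesis, was at 3.68, 3.56 and 3.77 in HHS against -0.09 to 2.39 in the controls, with a log2FC of 1.93 (SE 0.54). The phosphatase gene *CDC25C*, whose product activates the mitotic kinase CDK1, was at 2.75, 1.90 and 2.19 against -0.93 to 1.17, with a log2FC of 2.06 (SE 0.58). These 4 genes separated tumors from controls without overlap, beside 8.51% of all genes tested in this direction and 6.11% in the other. All 4 rose against blood alone, with adjusted p of 0.0199, 0.0312, 0.0183 and 0.0263, and their log2FC against spleen and lung were 2.53, 1.83, 1.39 and 1.67.

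Other mitosis genes had log2FC of either sign. *RAD21*, a cohesin subunit, had a log2FC of 0.09 (SE 0.32), *CDC23*, a subunit of the anaphase-promoting complex, of 0.14 (SE 0.32), and the nucleoporin gene *NUP107* of 0.29 (SE 0.28). *LMNB1*, which encodes lamin B1 of the nuclear envelope, had a log2FC of -0.62 (SE 0.61), with -1.01 against blood and 0.59 against spleen and lung. *CDC14B*, a phosphatase gene, was the member with a lower level at an unadjusted p of 0.0347, with -0.90, 1.73 and 2.06 in HHS and 2.36 to 3.46 in the controls (log2FC -1.74). Against the 15 HS tumors, 11 of the 13 mitosis genes were lower in HHS with a median log2FC of -0.41, beside -0.11 over all genes tested, and edgeR called 0. *CENPM*, a centromere protein, was the member with an unadjusted p under 0.05 there (log2FC -1.24, unadjusted p = 0.0127).

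Of 59 genes of DNA replication and repair, 17 were tested with a median log2FC of 0.22, which was 0.10 without blood control 1. Against the 5 controls edgeR called 0 and DESeq2 called 2 higher, beside 784 of the 18643 genes tested that DESeq2 called higher. At an unadjusted p under 0.05 in edgeR 4 were higher, beside 9.76% of all genes. *RECQL4*, a DNA helicase, was at 3.11, 0.70 and 1.94 in HHS, -1.73, -1.33 and 0.45 in blood, -0.49 in spleen and -0.29 in lung. HHS tumor 46 was only just above blood control 3, and the log2FC was 2.69 (SE 0.74, adjusted p = 0.127). *DSCC1*, which helps to load the replication clamp, was at 3.76, 3.68 and 4.29 against 0.78 to 2.73 in the controls and rose against blood (log2FC 1.82, adjusted p = 0.0487). *ATAD2*, a chromatin ATPase that acts with E2F and MYC, was at 6.09, 6.11 and 7.45 against 4.77 to 5.70, with a log2FC of 1.37 (SE 0.39), 1.31 against blood and 1.56 against spleen and lung. *TIMELESS*, of the replication fork protection complex, was at 4.85, 5.57 and 5.43 against 3.88 to 4.78, with a log2FC of 0.76 (SE 0.31), 0.73 against blood and 0.91 against spleen and lung. Repair genes such as *RAD50* (log2FC 0.07, SE 0.30), *MDC1* (-0.05, SE 0.31) and *XRCC6* (-0.13, SE 0.29) had levels within the range of the controls in each tumor.

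**Figure D3:**
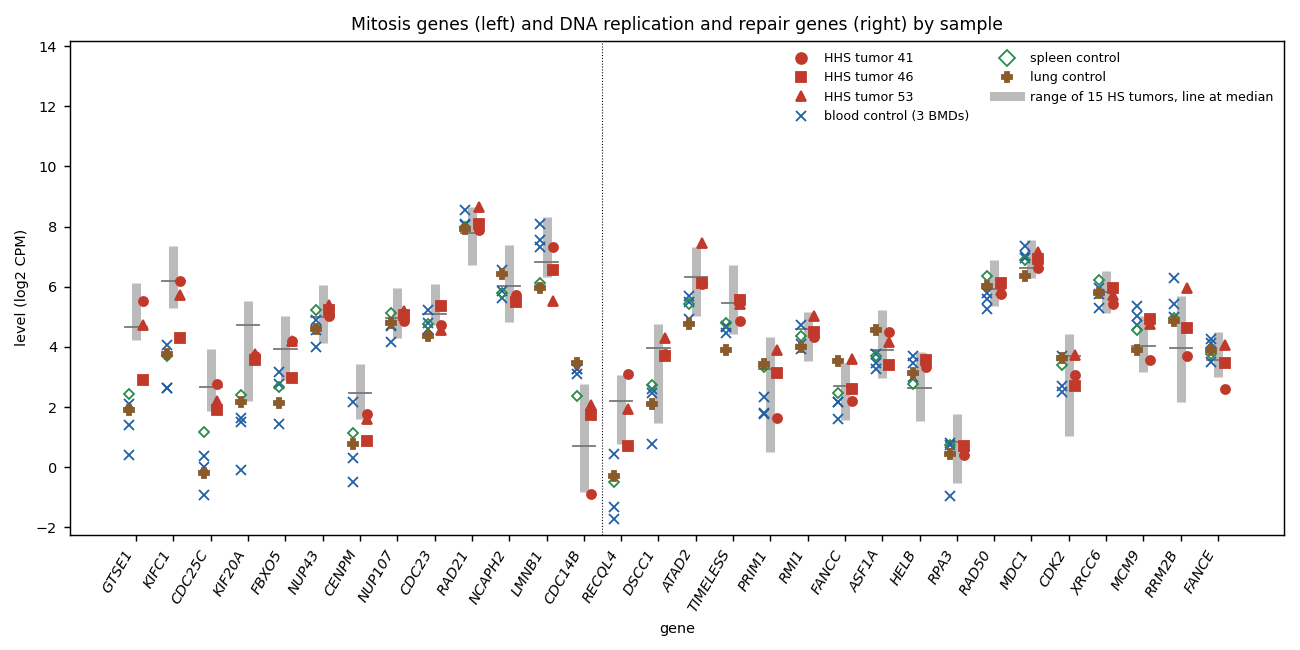
Level in log2 CPM of the 13 mitosis genes (left of the dotted line) and the 17 DNA replication and repair genes (right) in each HHS tumor (red) and each control, with grey bars for the range of the 15 HS tumors and a line at their median. *GTSE1*, *KIFC1*, *CDC25C* and *KIF20A* at the left end, and *RECQL4*, *DSCC1*, *ATAD2* and *TIMELESS* after the dotted line, have all 3 HHS tumors above all 5 controls.

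Antigen processing genes, most of them in the canine major histocompatibility complex (DLA), divided the HHS tumors. Of 27 genes listed, 15 were tested, with 0 called by edgeR or DESeq2 and 1 lower at an unadjusted p under 0.05 in edgeR, beside 10.5% of all genes. The median log2FC was 0.35, and it was 0.65 without HHS tumor 53, 0 without HHS tumor 41 and -0.10 without HHS tumor 46. Their summed CPM was 17700 in HHS tumor 41, 20200 in HHS tumor 46 and 2240 in HHS tumor 53, where the controls ranged from 5000 to 15700. The lung tumor HHS 53 was thus below every control and the other tumors above every control. *PSMB8*, a subunit of the immunoproteasome, was at 9.33, 8.39 and 4.32 in HHS and 6.06 to 7.83 in the controls. *HLA-DRB1*, the beta chain of the DR class II molecule (named by its human homolog), was at 12.60, 12.02 and 7.84 in HHS and 10.16 to 11.68 in the controls. *DLA88*, a class I heavy chain, was at 6.49, 11.25 and 3.75 in HHS and 8.07 to 10.36 in the controls, so that HHS tumors 41 and 53 were both below every control. *DLA-DOA*, a modulator of class II loading found in B cells, was at 2.01, 3.60 and -0.24 in HHS and 2.68 to 6.14 in the controls, with a log2FC of -2.62 (SE 1.10, unadjusted p = 0.0427). The paralogous DLA genes resemble each other in sequence, so the share of reads that each received is uncertain.

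The interferon and HLH genes showed the same low tumor in part. Of 38 genes listed, 10 were tested, with 0 called by edgeR. DESeq2 called 3 lower, beside 1375 of the 18643 genes tested. An unadjusted p under 0.05 in edgeR was found for 2 that were higher and 3 that were lower, beside 9.76% and 10.5% of all genes. *IFNG*, interferon gamma itself, was at 0.70, 2.24 and -2.65 in HHS, -2.77, 1.01 and 0.19 in blood, -1.04 in spleen and -1.92 in lung. The tumors overlapped the controls and the log2FC was 1.43 (SE 1.16, unadjusted p = 0.25). *IRF1*, a transcription factor induced by interferon, was at 8.35, 8.91 and 4.98 in HHS against 6.37 to 9.52 in the controls. *ETV7*, an interferon-induced ETS factor, was at 6.49, 6.72 and 3.60 against 3.16 to 5.07, with a log2FC of 1.88 (SE 0.67, unadjusted p = 0.0219). In both genes HHS tumor 53 was lowest of the tumors. *TNFAIP3*, the brake on NF-kappa-B known as A20, was at 5.36, 6.89 and 6.60 against 4.23 to 5.55, with a log2FC of 1.22 (SE 0.42, unadjusted p = 0.0191). *STX11*, whose loss causes a familial form of HLH, was at 2.48, 3.18 and 2.34 in HHS, 7.81, 5.96 and 6.17 in blood, 2.91 in spleen and 3.27 in lung. *STX11* fell against blood (log2FC -4.18, adjusted p = 0.00591), while against spleen and lung the log2FC was -0.39 (SE 0.57). *SOD2*, a superoxide dismutase of mitochondria, likewise fell against blood (log2FC -4.16, adjusted p = 0.00569) and had a log2FC of 0.05 against spleen and lung. *LY6E*, an interferon-induced surface protein, was at 3.45, 4.33 and -2.05 in HHS, 7.27, 4.84 and 6.87 in blood, 5.37 in spleen and 6.91 in lung. All tumors were below all controls, HHS tumor 53 by the most, with a log2FC of -3.16 (SE 1.23, unadjusted p = 0.0324), -3.23 against blood and -2.94 against spleen and lung.

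**Figure D4:**
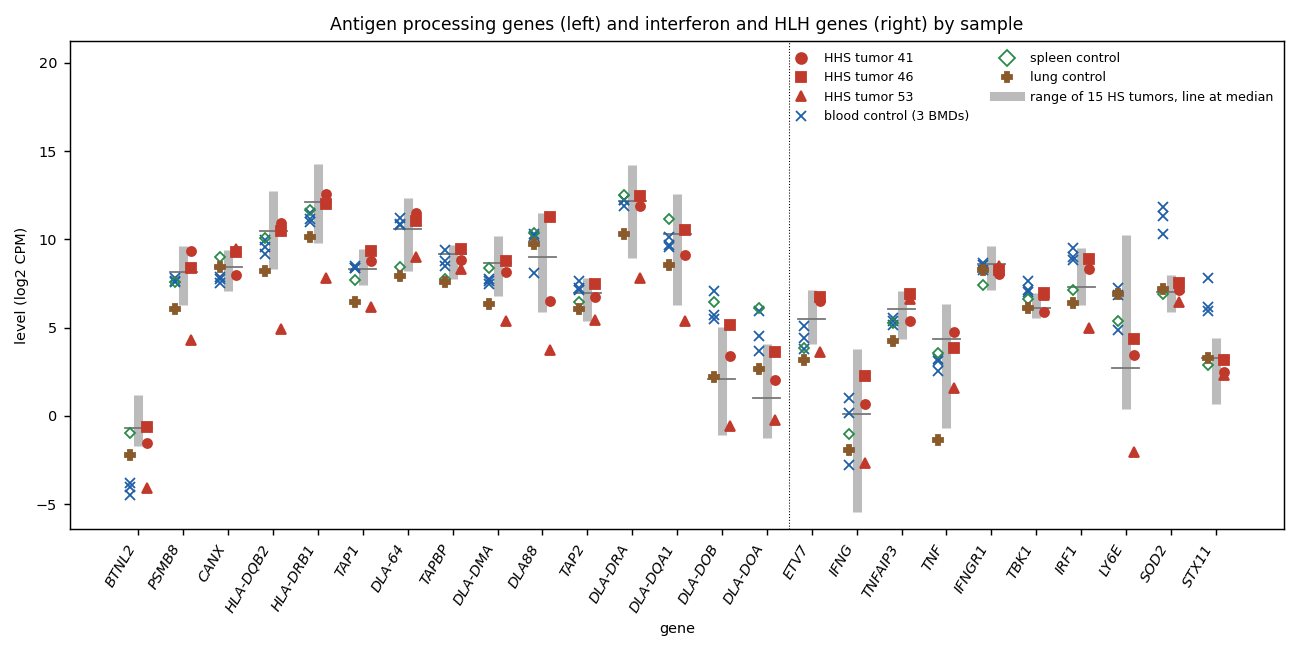
Level in log2 CPM of the 15 antigen processing genes (left of the dotted line) and the 10 interferon and HLH genes (right) in each HHS tumor (red) and each control, with grey bars for the range of the 15 HS tumors and a line at their median. HHS tumor 53 (triangle) is the lowest HHS tumor for most antigen processing genes and for *ETV7*, *IFNG*, *TNF* and *IRF1*.

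Phagocyte oxidase and receptor genes took opposite signs against the different controls. All 11 genes with an identifier, of 26 listed, were tested, and 10 of them had negative log2FC against the 5 controls, with a median of -1.34, or -0.86 without HHS tumor 53. EdgeR called 0 and DESeq2 called 1 lower, beside 1375 of the 18643 genes tested that DESeq2 called lower. At an unadjusted p under 0.05 in edgeR 4 were lower, beside 10.5% of all genes. Against blood alone 6 fell, where 8.23% of all genes tested were called lower, and 9 of the 11 had positive log2FC against spleen and lung, with a median of 0.63. *RAC2*, a GTPase of the neutrophil oxidase, was at 6.85, 6.72 and 6.75 in HHS, 9.69, 8.97 and 9.39 in blood, 7.72 in spleen and 5.29 in lung. It fell against blood (log2FC -2.58, adjusted p = 0.00569), and the solid organs lay on either side of the tumors. *CSF2RB*, the shared receptor chain for GM-CSF, interleukin-3 and interleukin-5, was at 7.66, 7.83 and 6.56 in HHS, 9.56, 9.21 and 8.61 in blood, 6.64 in spleen and 4.45 in lung, with a log2FC of -1.70 (adjusted p = 0.0413) against blood and 1.53 (SE 0.79) against spleen and lung. *NCF4*, an oxidase subunit, also fell against blood (log2FC -1.90, adjusted p = 0.0416) with a log2FC of 1.38 against spleen and lung.

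T and NK cell markers were below blood. The 7 tested markers, of 24 listed, all had negative log2FC against the 5 controls with a median of -3.0. EdgeR called 0 and DESeq2 called 1 lower, beside 1375 of the 18643 genes tested that DESeq2 called lower. In edgeR 3 had an unadjusted p under 0.05, beside 10.5% of all genes that were lower at that level. Against blood 4 fell, where 8.23% of all genes were called lower, among them *TCF7*, a transcription factor of naive T cells, at 2.62, 1.37 and -3.38 in HHS and 5.49, 5.47 and 7.18 in blood (log2FC -4.67, adjusted p = 0.0385). HHS tumor 53 was lowest, and *TCF7* was at 4.95 in spleen and 3.09 in lung. *TAGAP*, a GTPase-activating protein of lymphocytes, was at 5.48, 5.70 and 5.22 in HHS and 8.21 to 8.36 in blood (log2FC -2.78, adjusted p = 0.00338), with spleen at 5.39 and lung at 4.61 close to the tumors. Summed CPM of the T and NK markers was 116, 148 and 62.7 in HHS, 946 to 1260 in blood, 250 in spleen and 51.6 in lung. *TNFRSF13C*, the only B cell marker with an identifier, was at 0.65, 0.48 and -1.65 in HHS and -1.41 to 3.54 in the controls. Neutrophil markers and immune checkpoint genes have no named identifier here and were not analysed here.

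Stromal markers were nearly absent from blood, and summed stromal and endothelial markers were lower in each tumor than in spleen and lung. Summed CPM of the 5 stromal markers, of 19 listed, was 50.1, 120 and 123 in HHS, 0.407 to 2.68 in blood, 195 in spleen and 255 in lung. *THBS2*, a matrix glycoprotein of fibroblasts, was at 4.24, 6.29 and 5.87 in HHS, -4.81, -2.13 and -0.75 in blood, 3.97 in spleen and 2.95 in lung. It rose against blood (log2FC 7.59, adjusted p = 0.00671) and was the stromal marker above both organs (log2FC 2.16, unadjusted p = 0.0289). *TNXB*, a tenascin of connective tissue, was by contrast lower in HHS (1.37, 0.11 and 1.01) than in spleen (4.33) and lung (5.37), with a log2FC of -4.05 (unadjusted p = 0.000619). Summed CPM of the 4 endothelial markers, of 15 listed, was 59.3, 25.3 and 66.5 in HHS, 8.02 to 22.0 in blood, 150 in spleen and 635 in lung. *MYCT1*, an endothelial gene, overlapped between blood (3.60, 4.10 and 1.57) and HHS (3.61, 2.73 and 1.42), both below spleen at 5.49 and lung at 7.67. *PTPRB*, a phosphatase of vessel walls, was at 2.63, 3.36 and 1.90 in HHS, 5.67 in spleen and 7.99 in lung, with a log2FC of -4.50 (unadjusted p = 0.00165). The median log2FC against the 5 controls was -1.89 for stromal markers, or -0.16 without the spleen, and -2.27 for endothelial markers, or 0 without the lung. In each list 0 were called by edgeR or DESeq2 and 0 had an unadjusted p under 0.05 in edgeR.

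**Figure D5:**
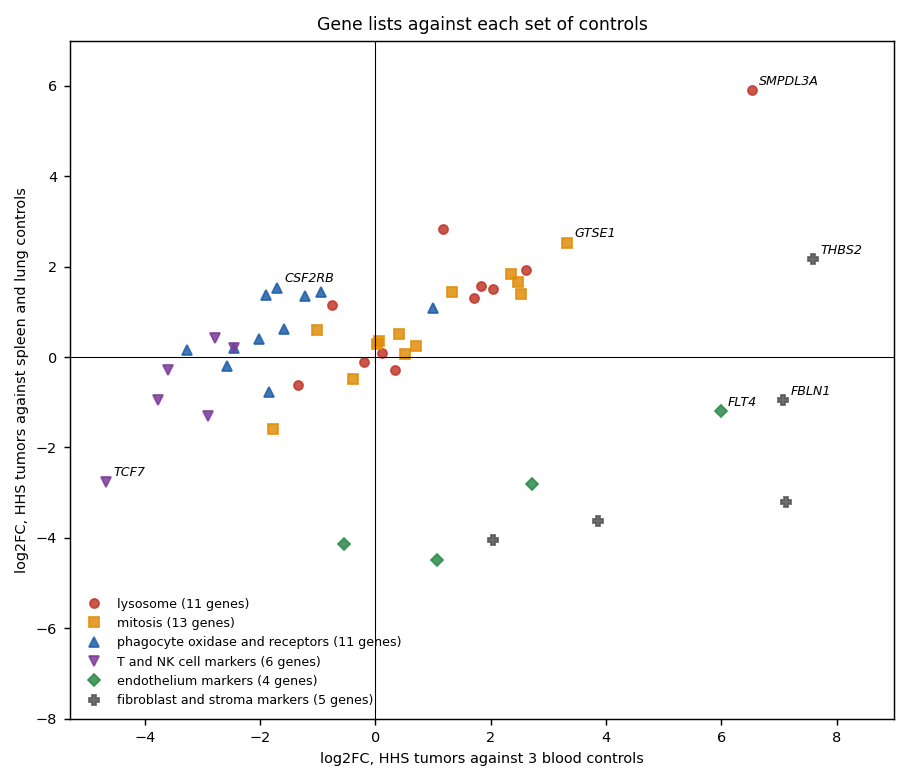
log2FC of the members of 6 gene lists against the 3 blood controls (horizontal axis) and against the spleen and lung controls (vertical axis), 1 point per gene, without genes that have 0 counts in all blood libraries. Lysosome and mitosis genes with large log2FC lie at the upper right, oxidase genes mostly lie left of 0 and above 0, and stromal and endothelial markers lie mostly right of 0 and below 0.

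Markers of liver and lung, the organs of HHS tumors 46 and 53, were low or scattered in the HHS tumors. No list of lymph node markers was used for HHS tumor 41. For the liver tumor HHS 46, the 10 hepatocyte markers with an identifier, of 25 listed, summed to 8.74 CPM, where the GSD liver control had 23200 and the 5 controls had 7.09 to 75.4. HHS tumor 41 from lymph node summed to 635, to which *FBP1*, an enzyme of gluconeogenesis that monocytes also express, contributed most. *FBP1* was at 9.28, -0.96 and 6.48 in HHS and 0.06 to 3.24 in the controls, with a log2FC of 6.09 (SE 1.66, unadjusted p = 0.00572), and HHS tumor 46 lay below every control. In the HS tumors *FBP1* ranged from 1.07 to 10.59 with a median of 8.05. *AGER*, the only lung epithelium marker with an identifier and a marker of alveolar type I cells, was at 2.58 in the lung tumor HHS 53 and at 10.58 in the lung control. The part of remaining organ tissue in the other results was not tested.

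Cholesterol synthesis was represented by 3 of 26 listed genes. Against the 5 controls edgeR called 0 of the 3, and DESeq2 called 1 lower, beside 1375 of the 18643 genes tested. At an unadjusted p under 0.05 in edgeR 1 was lower, beside 10.5% of all genes. *SREBF2*, the master transcription factor of the pathway, was at 4.87, 5.15 and 4.30 in HHS, 6.92, 6.38 and 6.93 in blood, 5.66 in spleen and 5.62 in lung. All tumors were below all controls, as for 6.11% of all genes tested, with a log2FC of -1.63 (SE 0.45, adjusted p = 0.128). *SREBF2* fell against blood (log2FC -1.92, adjusted p = 0.0116). *SQLE*, squalene epoxidase, was at 3.35, 1.84 and 3.96 in HHS against 2.87 to 4.40 in the controls (log2FC -0.58, SE 0.53). *ACAT2*, which supplies acetoacetyl-CoA, was at 5.40, 4.85 and 4.95 against 3.56 to 4.88 (log2FC 0.51, SE 0.35). Against HS tumors the log2FC of the 3 genes were -1.17, -1.39 and -0.62, and *SREBF2* had an unadjusted p of 0.0222 (adjusted p = 0.943). In that comparison 2.19% of all genes were lower at an unadjusted p under 0.05.

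Among 33 genes of MAPK and PI3K signaling output, 8 were tested with a median log2FC of -0.51, which was -0.27 without blood control 3, -0.24 without HHS tumor 53 and 0.03 without the lung. EdgeR called 0 and DESeq2 called 1 lower, beside 1375 of the 18643 genes tested that DESeq2 called lower. At an unadjusted p under 0.05 in edgeR 1 was higher and 1 lower, beside 9.76% and 10.5% of all genes. *CDK4*, the kinase that drives entry into the cell cycle, was at 7.24, 6.66 and 7.17 in HHS, 4.88, 5.29 and 5.75 in blood, 6.69 in spleen and 6.46 in lung. It rose against blood (log2FC 1.73, adjusted p = 0.0145), whereas HHS tumor 46 was level with spleen. *EGR1*, an immediate early gene of ERK signaling, was at 5.73, 5.76 and 5.10 in HHS, 1.45, 1.66 and 2.0 in blood, 5.99 in spleen and 8.23 in lung. *EGR1* thus rose against blood (log2FC 3.88, adjusted p = 0.00258) and was lower than in both organs (log2FC -1.95, unadjusted p = 0.0295). *SGK1*, a kinase downstream of PI3K, fell against blood (log2FC -3.99, adjusted p = 0.00894) from 7.82 to 9.76 in blood to 4.27 to 5.85 in HHS. Spleen at 4.82 lay among the tumors and lung was at 6.78, with a log2FC of -0.83 (SE 0.73) against both organs. *TRIB1*, a pseudokinase that shapes myeloid differentiation, was at 8.06, 7.73 and 7.02 in HHS against 5.38 in spleen and 4.84 in lung (log2FC 2.52, unadjusted p = 0.00303), and against blood its log2FC was 0.87 (SE 0.45).

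Outside these lists, several named genes with a small p against the 5 controls separated tumors from controls. The genes of this paragraph, other than *ITGA7* and *MIOX*, were chosen after their values were seen. The rule that named *ITGA7* and *MIOX* required no overlap with blood. *LRP11*, a receptor-related membrane protein, was at 6.54, 6.16 and 5.92 in HHS and 4.33 to 4.82 in the controls, with a log2FC of 1.57 (SE 0.25, adjusted p = 0.067). *PPARD*, a nuclear receptor for fatty acids, was at 6.11, 6.39 and 6.26 against 4.71 to 5.05, with a log2FC of 1.28 (SE 0.23). *ITGA7*, a laminin-binding integrin, was at 7.56, 5.37 and 6.34 in HHS against 1.07 to 4.43, and rose against blood (log2FC 4.58, adjusted p = 0.00709). *CXCL14*, a chemokine, was at 2.90, 2.11 and 4.63 against -3.74 to -0.04, with a log2FC of 4.93 (SE 1.03). These 4 genes were higher in every HHS tumor than in every control, as were 107 of the 990 named genes and 8.51% of all genes tested. *SYNE1*, which links the nucleus to the cytoskeleton, was at 4.75, 5.62 and 4.78 in HHS and 6.92 to 8.22 in the controls (log2FC -2.70, SE 0.45, adjusted p = 0.067). *UTRN*, the dystrophin homolog utrophin, was at 5.77, 6.65 and 5.76 against 7.48 to 8.36 (log2FC -2.02, SE 0.40), and *PSIP1*, a chromatin coactivator, at 5.02, 5.11 and 4.80 against 6.32 to 7.40 (log2FC -2.0, SE 0.35). *MIOX*, an enzyme of inositol breakdown, was at -0.23, -0.01 and -1.74 in HHS, 12.59, 9.40 and 12.43 in blood, 9.84 in spleen and 4.83 in lung, with a log2FC of -11.92 (SE 2.26, adjusted p = 0.0844). These 4 genes were below every control in every tumor, as were 65 of the 990 named genes and 6.11% of all genes tested. Over all 990 named genes tested, 120 were higher and 117 were lower with an unadjusted p under 0.05, and the smallest adjusted p was 0.0525.

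Against blood alone 3608 of 17359 tested genes were called, 2180 higher and 1428 lower in HHS. The position of spleen and lung divided these calls. Of the 2180 genes higher than blood, 739 (33.9%) were also above both organs in every HHS tumor, beside 17.7% of all genes tested against these organs. Of the 1428 genes lower than blood, 546 (38.2%) were also below both by their levels, beside 20.4% of all genes tested against these organs, where 1286 of the 1428 were tested. The same HHS libraries enter both comparisons, so shares above those of all genes follow in part from the selection and are no separate support. Besides *SMPDL3A* and *ITGA7*, the genes with the highest log2FC against blood under the naming rule were *AFDN* (5.87), a junction scaffold, *ENPP2* (4.33), the lysophospholipase autotaxin, and *SASH1* (4.17), an adaptor protein. Each of them was lower in at least 1 HHS tumor than in spleen, lung or both: *SASH1* was at 5.36, 4.70 and 5.84 in HHS, 7.67 in spleen and 7.36 in lung. Among the lowest were *MIOX* (-12.48), *ISCA1* (-4.79), an iron-sulfur cluster assembly factor, *TCF7* (-4.67) and *TMEM71* (-4.32). *ISCA1* was at 5.24 in blood control 2 and at 9.44 and 9.04 in the other blood controls, and at 4.40, 3.68 and 3.42 in HHS. Against spleen and lung, 1 of 19242 genes was called (0.0052%), which fell and has no name here, and 3435 genes (17.9%) had an unadjusted p under 0.05.

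HHS tumors were also compared directly with the 15 HS tumors, to ask whether a difference from controls belongs to the hemophagocytic form. No gene of 19853 was called by edgeR's quasi-likelihood test (0%), 797 (4.01%) had an unadjusted p under 0.05, and DESeq2 called 1. Of 1006 named genes, 18 were higher in HHS with an unadjusted p under 0.05 and 20 were lower, beside 1.82% and 2.19% of all genes. *GALR1*, a receptor for the neuropeptide galanin, was at -1.76, 0.39 and 2.64 in HHS, -4.81, -6.22 and -3.12 in blood, -5.77 in spleen and -3.27 in lung. *GALR1* belongs to none of the gene lists and may have been picked with earlier results of these data known. All HHS tumors exceeded all controls, and *GALR1* rose against blood (log2FC 5.92, adjusted p = 0.0381). The HS tumors ranged from -6.22 to -0.99 with a median of -5.75, so HHS tumor 41 lay inside their range and HHS tumors 46 and 53 above it, with a log2FC of 4.98 (SE 1.38, unadjusted p = 0.00176, adjusted p = 0.943). *RSPO2*, a secreted amplifier of Wnt signaling named after its values were seen, had the smallest p of the named genes (log2FC 6.58, SE 1.13, adjusted p = 0.211). It rested on HHS tumor 53 at 5.60, as HHS tumors 41 and 46 were at -2.42 and -3.60 and the HS median was -2.97.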

How the data were processed

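RNA was depleted of ribosomal and globin transcripts and sequenced as stranded libraries. Per the submitters' processing notes, the authors used cutadapt 3.7 for trimming, STAR 2.7.10a for alignment to the CanFam3.1 build and HTSeq 2.0.0 for counting. The deposited values are raw counts for 32704 identifiers in 24 libraries. The annotation release and strand option are not given in the sources used here, so overlapping and antisense genes may share reads.

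Genes were compared with R 4.3.3 and edgeR 4.0.16 (TMM factors, filterByExpr, quasi-likelihood test, Benjamini-Hochberg adjustment), with DESeq2 1.42.0 as an alternative. Tests were tested on simulated data. Genes were called at an adjusted p under 0.05 and an absolute log2FC above 1.5. Levels are log2 CPM with a prior count of 2. For a gene with 0 counts in every blood library, the fold against blood used a floor of 3 counts per library, which covers counting error only. All other levels and log2FC were taken without this floor, and a count of 0 appears as a level of -6.22. Such values for genes with counts near 0 are point values and not lower bounds. The alternatives are given in the closing section.

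Names for 1126 identifiers came from the identifier columns of the study's supplementary tables. For 921 of them the gene number was found in the RefSeq gene table of another assembly, with the same name for 879. Therefore no coordinates and no sequences are given, and gene lists are covered in part. The columns of the authors' own fold changes and p-values in those tables were not used. The counts of the cell lines were not used here.

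The rule for named genes took called genes with a name, the 5 highest and 5 lowest log2FC against blood and against spleen and lung (mean of at least 3 log2 CPM, no overlap), up to 4 members of each list with the smallest p, and a fixed set of known genes. *GALR1* was in that set but in none of the lists, and may have been included with earlier results of these data known. Other list members were named after their values were seen. A few genes that the rule or the lists include are not reported here by name. The tumors, lists and tests were chosen with earlier results of these data known. The labels do not say whether the GSD organs came from 1 dog, and p-values measure only the spread between these samples.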

Additional observations from a re-analysis of the deposited data

Results flagged for a closer look

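Among the 5 controls, 1 library stood apart from the other 4 by Dixon's ratio for 2 of the 70 genes named by the rule, where chance flags about 5%. *MDM2*, the ubiquitin ligase of p53, was at 5.64 in blood control 1 and at 6.34 or more in the other controls (ratio 0.91). *PSMB8* was at 6.06 in the lung control and at 7.58 or more in the other controls (ratio 0.86). The 5 controls come from 3 tissues, so that a library that stands apart may differ by its tissue, which was not tested.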

How the results depend on the processing

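The count of genes called against the 5 controls was 25 and moved with the method and the libraries used. It stayed within 1.5 times of 25 with relative log expression size factors, without a filter on low counts, without the cutoff on log2FC, with a robust fit and with the liver control added. The genes behind the count were not always the same. Without a filter 19 were called and 18 of them were among the 25. With the liver control added 20 were called, all higher, and 14 of them were among the 25. DESeq2 called 2159 genes. A filter of 50 counts in at least 3 samples gave 41, Benjamini-Yekutieli adjustment 0, and a test against a log2FC of 1.5 gave 0. Fitting blood, lung and spleen as separate tissues gave 583 calls, 370 higher and 213 lower. Fitting all 24 libraries together gave 1854, 1638 higher and 216 lower. With blood controls only the count was 3608 and with spleen and lung controls only 1. Leaving out each library in turn gave 0 (any blood control, the spleen or HHS tumor 41) to 104 (the lung). Against blood alone, Benjamini-Yekutieli adjustment gave 370 in place of 3608, and leaving out each library gave 1202 (without blood control 1) to 4074. Against spleen and lung, DESeq2 called 2555, the fit without a filter 14 and Benjamini-Yekutieli adjustment 0 in place of 1, and leaving out each library gave 0 to 96 (without the spleen). Against HS tumors, DESeq2 called 1 and the fit without a filter 4 in place of 0. The cause of these changes was not tested, except that the stricter filter and the smaller sets test fewer genes or samples by construction.

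No paired analysis was possible because the labels give no replicate numbers shared between the groups.

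None of the 70 genes named by the rule was called against the 5 controls, and some changed sign under an alternative. *FLT4* had log2FC (-0.74 to 1.17 over the libraries left out) of -0.21, -0.21 and -0.22 without blood control 1, 2 or 3, of -0.74 without HHS tumor 53 and of -1.20 with spleen and lung only. *ENPP2* (-2.44 to 1.12 over the libraries left out) had 1.12 without the spleen, 0.01 without the lung, 0.27 without HHS tumor 41, 0.40 without HHS tumor 53, 2.08 with all libraries, 0.55 with separate tissues and 4.33 with blood only. *NOTCH4* (-2.65 to 2.12) had 2.12 without the lung, 1.12 with all libraries and 2.71 with blood only. Without HHS tumor 53, *DCSTAMP* had -0.71 and *AFDN* -0.15 (up to 3.28 without the lung), and *AFDN* had -0.47 with spleen and lung only. With all libraries, *RDH16* had 1.61, *COL14A1* 0.90, *LAMA2* 3.1 and *SASH1* 1.67. With separate tissues, *LYZ* had 0.72 and *LAMA2* 0.39. With the liver added, *ACAT2* had -0.51, *ARG1* -8.46, *APOF* -5.07 and *HEBP2* -0.41. With blood only, *PTPRB* had 1.06, *TNXB* 2.04, *RDH16* 6.07, *COL14A1* 3.86, *LAMA2* 7.12 and *SASH1* 4.17. With spleen and lung only, *SOD2* had 0.05, *TAGAP* 0.42, *NFAM1* 0.15, *GRAP2* 0.20, *LYZ* 1.91 and *STAT6* 0.35. *SMPDL3A* kept its sign in all 21 alternatives, with log2FC from 4.28 to 6.72, and was called in 8 of them. Among list medians, those against spleen and lung moved to 1.13 for macrophage, 2.77 for dendritic cell, 0.63 for phagocyte oxidase and -0.61 for T and NK cell genes, and those against blood to -5.65 for erythroid, 1.88 for endothelial and 7.07 for stromal markers.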
